A study of Drosophila melanogaster with 30 samples.

Results

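In a mesodermal silencer screen, 7 barcoded reporter elements taken from 6 Drosophila genes were followed across sorted embryonic cells. They are the elements whose names begin with vas, Z600, Est-6, Sgs4, Acp65Aa or Cpr47Ee, which made 7 of the 576 elements listed in the first screening round, or of 591 listed in either round. None of the 7 was among the 188 elements listed in round 2, so every value comes from the 18 libraries of round 1. The members share no pathway: they come from genes of the germline, of early mitosis control, of glands and of the cuticle. The genes were chosen by class and partly by the measured recovery of their elements in low-GFP cells over both controls in round 1. That recovery was known from an earlier look at the same libraries. Those values are therefore given as a description, with no test of a member's recovery over controls.

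A silencer is a stretch of DNA that lowers transcription from a promoter or enhancer in cells where repressors bind it, and the same stretch can act as an enhancer in another cell type. In the screen each candidate sat beside a strong enhancer active in all cells that drives GFP, so a working silencer was looked for as an element enriched in cells with reduced GFP. The mesoderm is the embryonic layer that makes muscle, heart and fat body. Germline genes act in germ cells, glue genes in the larval salivary gland and cuticle genes in the epidermis, whereas Z600 acts in the early embryo, the mesoderm included.

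Round 1 held 3 sorted populations with 6 libraries each. All came from the same kind of cross: males with random picks from the pool of reporter insertions were mated to twi:CD2 virgin females. In these females the regulatory DNA of twist, a mesodermal transcription factor, drives the CD2 surface protein, so that an antibody to CD2 marks mesodermal cells. Embryos were laid over 2.25 h and aged for 11 h at 18 °C. The low-GFP cells were CD2+ cells with reduced GFP, the CD2+ control was the CD2-positive sort and the CD2- control was the CD2-negative sort. Each of the 6 collection days gave 1 library of each population, and days 1 to 3 were experiment 1 while days 4 to 6 were experiment 2. Inserts were recovered from genomic DNA by nested PCR, so the libraries hold no RNA and the labelled cell type could not be checked against marker genes. A library's count of an element follows both the number of sorted cells with that insertion and the yield of PCR, which cannot be told apart.

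The libraries held 3399506 to 5934098 read 1 counts, and 316 to 371 elements were detected in each. The 7 members took 1.51% to 6.43% of a library. Levels are given as CPM, the count scaled to a library total of 1000000, in which 3 counts, the floor used for a count of 0, were worth 0.506 to 0.882 CPM. Amplicons were sheared before sequencing, so a longer insert gives more reads, and since insert lengths were not used here no element's level is set against another's.

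The deposited tables list a barcode of 12 bases with each element, and whether reads were assigned by it or by the insert is not given in the sources used here. The barcodes of 6 members are shown because they identify the constructs, in the orientation of the deposited tables:
vas_construct16: ccgtcctataga
vas_96bpEnhancer: aggaccagcgac
Z600_z600-lacZ: ccatgaagctgt
Est-6_D-511: gtgaaggcagaa
Sgs4_OPSL: agacccagctaa
Acp65Aa_172: tcgctacatttc
The nearest other barcode of the pool lay 3 mismatches away for Acp65Aa_172 and both vas elements, and 4 away for Z600_z600-lacZ, Est-6_D-511 and Sgs4_OPSL. The genes lie on arm 2L (vas), arm 3L (Z600, Est-6 and Acp65Aa) and the X chromosome (Sgs4) in the RefSeq annotation, and the inserts themselves are not located here because the files state no genome build.

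The germline gene vas encodes Vasa, a DEAD-box RNA helicase of the germ plasm and germ cells. Its element vas_construct16 had 114, 66.2, 457, 116, 198 and 115 CPM on days 1 to 6 in low-GFP cells. On the same days it had 0, 4.41, 0.236, 1.02, 2.08 and 1.53 CPM in CD2+ libraries and 2.82, 2.0, 2.36, 0.549, 0.461 and 0.803 CPM in CD2- libraries. All 6 low-GFP libraries lay above all 12 controls, the lowest of them 15.0 times the highest control. The element averaged 178 ± 143 CPM in low-GFP cells, with 1.54 ± 1.61 CPM for CD2+ and 1.5 ± 1.0 CPM for CD2- sorts (SD, n = 6 each). The control means rest on 35 counts summed over the CD2+ libraries and 39 over the CD2- libraries. In the fit over all elements the log2 fold change of low-GFP over both controls was 7.57.

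The other element of the same gene, vas_96bpEnhancer, was recovered in experiment 2 alone. In experiment 1 it was at or under the floor in every library, with counts of 0, 2 and 0 in low-GFP cells, 0 on all days in CD2+ cells and 1, 0 and 0 in CD2- cells, and no fold is given there. In experiment 2 it had 79.4, 563 and 2552 CPM on days 4, 5 and 6 in low-GFP cells, against 104, 370.4 and 899 CPM in CD2+ cells and 99.4, 568 and 1080.5 CPM in CD2- cells. In all 3 sorts the values of day 4 lay below those of day 5, and those of day 5 below those of day 6, and the low-GFP and control values overlapped. On the TMM scale, which corrects for differences in library composition, the daily log2 difference of low-GFP cells from both controls was 1.45, 1.05 and 1.30, while by unscaled CPM the low-GFP library of day 4 was below both controls. The fit within experiment 2 gave a log2 fold change of 1.24. This element was 1 of 5 among the 358 elements tested (1.4%) that were in all 9 libraries of experiment 2 and at 3 counts or fewer in all 9 of experiment 1. The reverse held for 2 elements (0.559%).

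**Figure D1:**
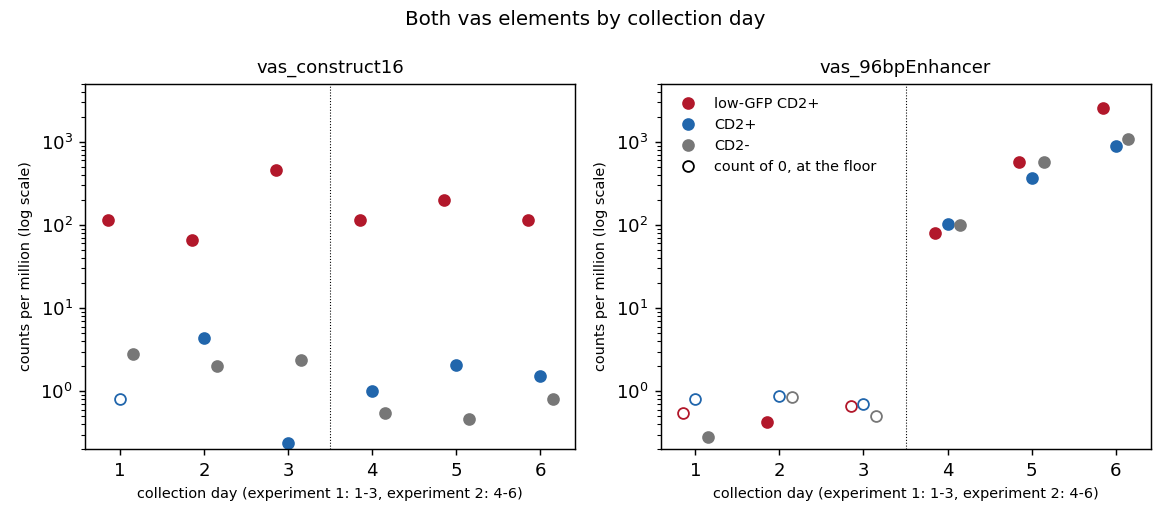
CPM (log axis) of both vas elements by collection day, for low-GFP, CD2+ and CD2- libraries, 1 point per library, with counts of 0 drawn open at the floor of 3 counts. vas_construct16 was recovered above both controls on all 6 days, while vas_96bpEnhancer was at or under the floor on days 1 to 3 and moved with the day in all 3 sorts on days 4 to 6.

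Z600, also called fruhstart, encodes a small zygotic inhibitor of cyclin-dependent kinase that holds back mitosis in ventral cells while the mesoderm invaginates. Z600_z600-lacZ had 1589, 331, 2019.7, 1098, 1411 and 1299.5 CPM on days 1 to 6 in low-GFP cells. On the same days it had 6.16, 2.65, 5.19, 1.83, 1.04 and 2.03 CPM in CD2+ libraries and 7.60, 1.43, 4.38, 1.28, 0.923 and 0 CPM in CD2- libraries. The groups did not overlap, and the lowest low-GFP library was 43.5 times the highest control. The mean was 1291 ± 565 CPM in low-GFP cells, with 3.15 ± 2.05 CPM for CD2+ and 2.6 ± 2.9 CPM for CD2- sorts (SD, n = 6 each). The ratio of means was 410-fold over CD2+ and 496-fold over CD2-, with control counts between 0 and 27 in a library.

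The daily log2 difference of Z600_z600-lacZ from both controls was 10.84, 10.61 and 10.17 in experiment 2 and 8.54, 7.91 and 8.72 in experiment 1, so the days of the experiments did not overlap. The share of all elements with such a gap was not counted. In experiment 2 Z600_z600-lacZ had counts of only 4 to 9 in CD2+ and 0 to 7 in CD2- libraries. Its low-GFP means were 1269 ± 159 CPM in experiment 2 and 1313 ± 878 CPM in experiment 1 (SD, n = 3 each). The CD2+ means were 1.63 ± 0.53 CPM in experiment 2 and 4.67 ± 1.81 CPM in experiment 1, and the CD2- means 0.735 ± 0.661 CPM in experiment 2 and 4.47 ± 3.09 CPM in experiment 1 (SD, n = 3 each). The difference in log2 fold change between the experiments was 2.41 (SE 1.66) and did not pass the test (edgeR quasi-likelihood, Benjamini-Hochberg adjusted p = 1.00).

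Est-6 encodes a carboxylesterase that is secreted and abundant in the ejaculatory duct of adult males. Est-6_D-511 had 729, 146, 1313, 128, 223 and 405 CPM on days 1 to 6 in low-GFP cells. On the same days it had 4.02, 9.71, 17.0, 2.44, 2.33 and 6.10 CPM in CD2+ libraries and 13.0, 8.58, 10.6, 4.39, 2.54 and 4.55 CPM in CD2- libraries. Again no control library reached the lowest low-GFP library, which was 7.55 times the highest control. The means were 491 ± 461 CPM in low-GFP cells, with 6.93 ± 5.64 CPM for CD2+ and 7.27 ± 4.08 CPM for CD2- sorts (SD, n = 6 each), a ratio of 70.8 and 67.5. The fitted log2 fold change over both controls was 6.64, and it was 6.70 within experiment 2 and 6.58 within experiment 1.

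Sgs4 encodes a glue protein that the larval salivary gland secretes before pupariation. Sgs4_OPSL had 34.2, 33.2, 206, 16.5, 16.5 and 99.0 CPM on days 1 to 6 in low-GFP cells. On the same days it had 13.1, 0, 15.8, 15.0, 0.778 and 0 CPM in CD2+ libraries and 42.5, 1.72, 41.1, 28.2, 0.923 and 7.49 CPM in CD2- libraries. The low-GFP libraries all lay above the CD2+ libraries, by a ratio of 1.04 at the closest, but overlapped the CD2- libraries. How many of all elements held such an order over CD2+ was not counted, so nothing is read from it. On each of the 6 days the low-GFP library exceeded that day's CD2- library on the TMM scale, by log2 differences of 0.50 to 4.76, whereas by unscaled CPM it did so on 4 of 6 days and was lower on days 1 and 4. The means were 67.6 ± 74.4 CPM in low-GFP cells, with 7.46 ± 7.94 CPM for CD2+ and 20.3 ± 19.4 CPM for CD2- sorts (SD, n = 6 each). The log2 fold change over both controls was 2.91, and 4.24 with the collection day as a block. Over 17 alternative settings it ran from 2.45 to 4.24.

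**Figure D2:**
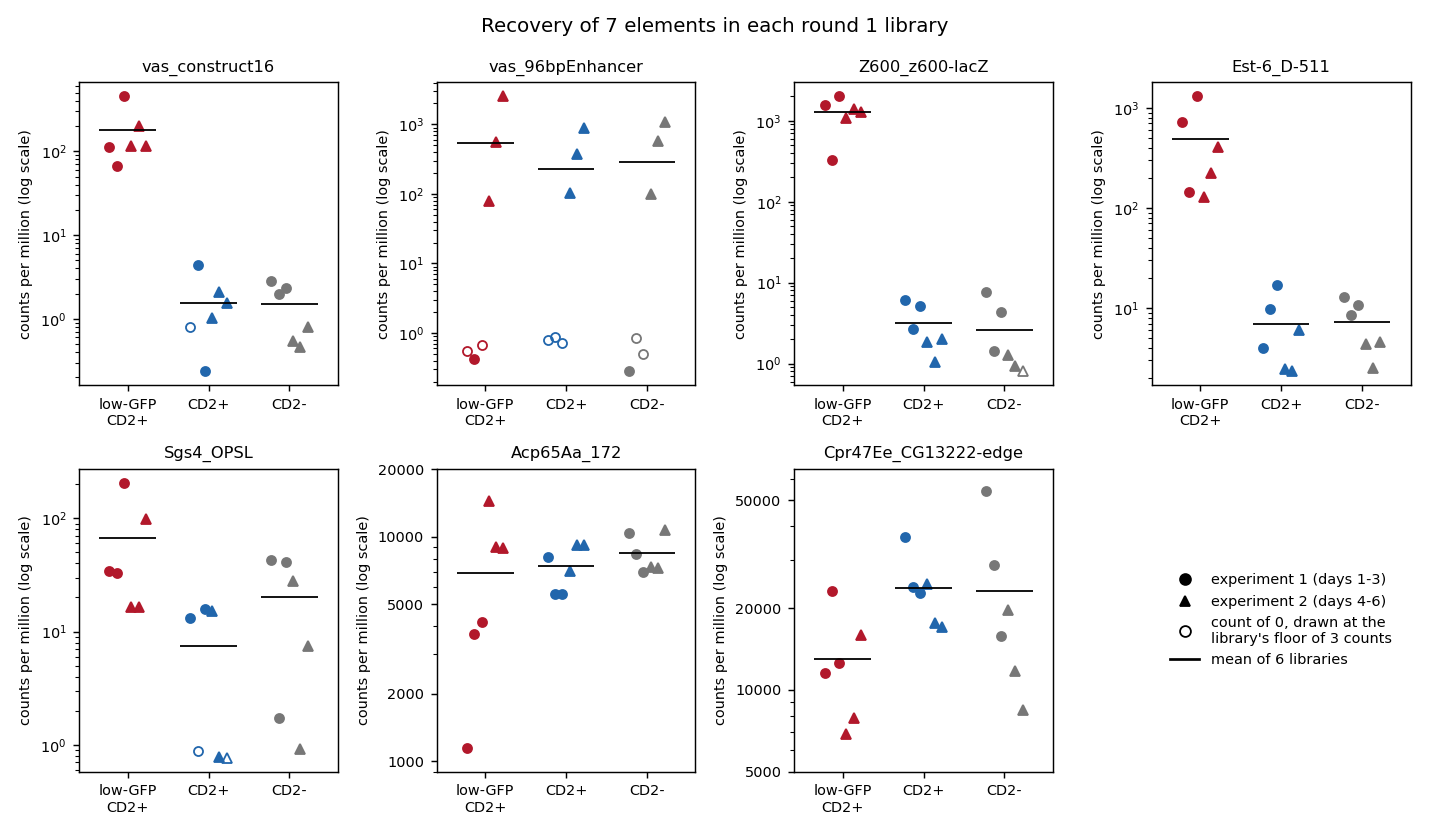
CPM (log axis, own range in each panel) of the 7 elements in low-GFP, CD2+ and CD2- libraries of round 1, with 1 point per library, circles for experiment 1, triangles for experiment 2 and a line at the mean of 6. Low-GFP libraries stand apart from all controls for vas_construct16, Z600_z600-lacZ and Est-6_D-511, and overlap them for the other elements.

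The other pair of elements comes from genes of the cuticle, the chitin-based outer covering that the epidermis secretes. Acp65Aa encodes a cuticle protein of the adult. Acp65Aa_172 had 1147, 3690.4, 4195, 14487, 8996 and 8928 CPM on days 1 to 6 in low-GFP cells. On the same days it had 8085, 5540.2, 5552, 7075, 9209 and 9176 CPM in CD2+ libraries and 10429.9, 8354, 6950.2, 7345, 7234 and 10739 CPM in CD2- libraries. By unscaled CPM all 3 low-GFP libraries of experiment 1 lay below all 12 controls, while the day 4 library lay above all of them. The share of all elements in such an order is not given here. On the TMM scale the daily log2 difference from both controls in experiment 1 was -2.22, 0.0004 and -0.42. On day 2 the low-GFP library was 0.29 above CD2+ on that scale. In experiment 2 the mean was 10804 ± 3190 CPM in low-GFP cells, 8487 ± 1223 CPM for CD2+ and 8439 ± 1992 CPM for CD2- cells (SD, n = 3 each). In experiment 1 it was 3011 ± 1634 CPM in low-GFP cells, 6392 ± 1466 CPM for CD2+ and 8578 ± 1751 CPM for CD2- cells (SD, n = 3 each).

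The fitted log2 fold change of Acp65Aa_172 over both controls was 1.45 within experiment 2 and -0.77 within experiment 1. The difference of 2.22 (SE 0.78) between the experiments was not called (edgeR unadjusted p = 0.0115, adjusted p = 0.686), whereas the DESeq2 Wald test gave 2.20 with an adjusted p of 0.0425. Without day 4 the edgeR difference was 1.10, and without that day the fold change over both experiments was -0.31, against 0.48 with all days. The interaction test was chosen after the data were seen, and it uses the low-GFP values that helped choose the members. Its p-values for members are therefore a description, and no conclusion is drawn from them.

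Cpr47Ee encodes a cuticle protein of the chitin-binding CPR family. Cpr47Ee_CG13222-edge had 11528, 23138, 12596, 6879.9, 7905 and 15993 CPM on days 1 to 6 in low-GFP cells. On the same days it had 36574, 23936, 22818, 24603, 17667 and 17122 CPM in CD2+ libraries and 53758, 28797, 15757, 19764, 11719.7 and 8473 CPM in CD2- libraries. By unscaled CPM 5 of the 6 low-GFP libraries lay below every CD2+ library, and the exception was day 2. The share of all elements in such an order is not given here. By total counts the median log2 fold change over both controls was -1.23 for all elements tested and -0.81 for this one. By unscaled CPM the low-GFP library was below the CD2+ library of its day on 6 of 6 days, and on the TMM scale on 5 of 6. The element took 1.30% ± 0.60 of a low-GFP library, against 2.38% ± 0.70 of a CD2+ and 2.30% ± 1.66 of a CD2- library (SD, n = 6 each).

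The direction for both cuticle gene elements depended on how libraries were scaled. By total counts the log2 fold change of low-GFP over both controls was -0.81 for Cpr47Ee_CG13222-edge and -0.40 for Acp65Aa_172. With TMM it was -0.10 and 0.48, with DESeq2 size factors 0.23 and 0.80, and with the summed E. coli control elements 0.22 and 0.98. Over all 358 elements tested the median of the same log2 fold change was -1.23 by total counts, -0.61 with TMM, -0.29 with DESeq2 size factors and -0.47 with E. coli scaling. The cuticle gene elements were above that median under each of these 4 scalings. A scaling shifts all elements of a library alike, so the 4 are not separate results. The members' fold changes partly chose them, and nothing is read from their place against the median. TMM factors had a median of 0.714 in low-GFP libraries, 1.14 in CD2+ and 1.27 in CD2- libraries.

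**Figure D3:**
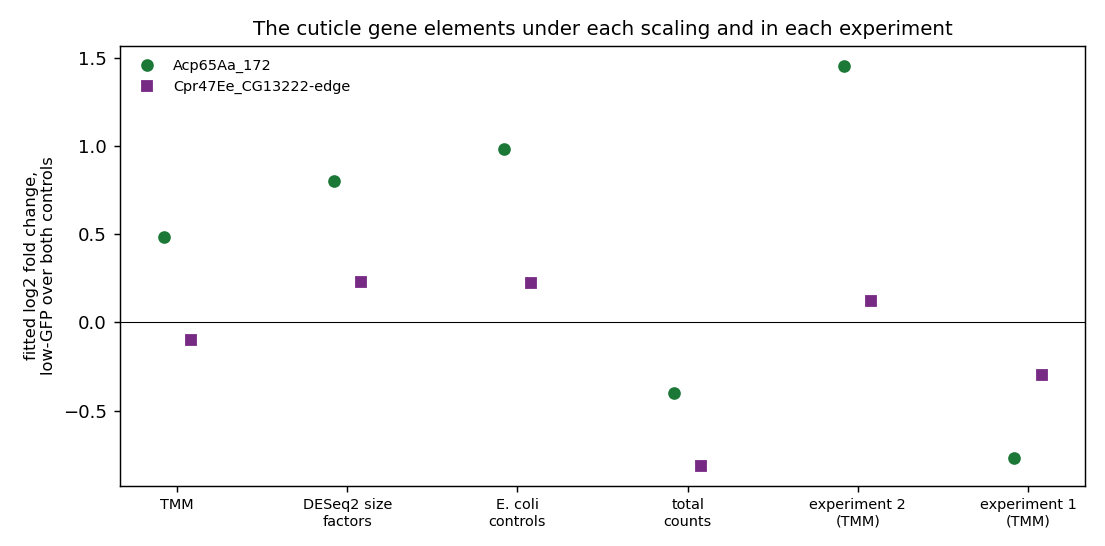
Fitted log2 fold change of low-GFP over both controls for Acp65Aa_172 (circles) and Cpr47Ee_CG13222-edge (squares) under 4 scalings and, with TMM, within each experiment. Cpr47Ee_CG13222-edge ran from -0.81 to 0.23 over the scalings, and Acp65Aa_172 was 1.45 in experiment 2 and -0.77 in experiment 1.

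Set side by side, the log2 fold changes of low-GFP over CD2+ and over CD2- were 9.70 and 10.29 for Z600_z600-lacZ, 7.44 and 7.70 for vas_construct16, and 6.60 and 6.68 for Est-6_D-511. They were 3.56 and 2.26 for Sgs4_OPSL, 0.56 and 0.41 for Acp65Aa_172, and -0.23 and 0.03 for Cpr47Ee_CG13222-edge. These comparisons share their low-GFP libraries. Against both controls 4 of the 7 members were past the threshold upward (Z600_z600-lacZ, vas_construct16, Est-6_D-511 and Sgs4_OPSL) and 0 downward, where 26% of all 358 elements were called, 15.9% higher and 10.1% lower, and because these values chose the members nothing is read from the count. The count holds Sgs4_OPSL under only 7 of 17 alternative settings. All 6 low-GFP libraries exceeded all 12 controls for 3 members, as they did for 7.54% of the elements.

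Elements named for E. coli, taken here as controls of bacterial origin, were measured in the same libraries. Of 12 listed in round 1, 8 were tested, and their log2 fold change of low-GFP over both controls had a median of -2.04 and ran from -6.47 to 2.43. One E. coli element was called higher and 0 lower. The members' own fold changes helped choose them, so they are not set against that range.

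The authors' deposited table of each experiment held the members as well, with log2 fold changes of 10.74 in experiment 2 and 8.46 in experiment 1 for Z600_z600-lacZ. The authors' deposited tables gave, for experiments 2 and 1, 7.86 and 7.06 for vas_construct16, 6.84 and 6.41 for Est-6_D-511, and 2.93 and 2.45 for Sgs4_OPSL. For Acp65Aa_172 the authors' deposited tables gave 1.57 in experiment 2 and -0.89 in experiment 1, and for Cpr47Ee_CG13222-edge 0.24 and -0.22. The element vas_96bpEnhancer had 1.25 in the authors' deposited table of experiment 2 and no row in the other. Both sources gave Acp65Aa_172 opposite signs in the experiments. They did so for Cpr47Ee_CG13222-edge as well, with 0.12 within experiment 2 and -0.30 within experiment 1 in the fit here. The 2 sources analyse the same libraries and are not independent.

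The comparison of the control sorts, taken before selection on GFP, contrasts no low-GFP library. It asks whether an element was already unequally recovered in mesodermal and other cells. The low-GFP libraries still entered the fit, through its count filter, TMM scaling and dispersion. Z600_z600-lacZ and vas_construct16 passed that filter only through their low-GFP libraries, so their results here are a description. None of the 7 members passed the test between CD2+ and CD2- cells (edgeR, adjusted p = 0.999 for each), and over all elements 0 of 358 (0%) were called, with 6 (1.68%) at an unadjusted p under 0.05 and 6 of 416 called by DESeq2, which tested more elements. The log2 fold change of CD2+ over CD2- was 0.59 (SE 0.96) for Z600_z600-lacZ, 0.26 (SE 0.99) for vas_construct16 and 0.08 (SE 0.84) for Est-6_D-511. It was -1.30 (SE 1.27) for Sgs4_OPSL, -0.15 (SE 0.51) for Acp65Aa_172 and 0.26 (SE 0.39) for Cpr47Ee_CG13222-edge. For vas_96bpEnhancer it was -0.66 (SE 1.15) over both experiments and -0.20 within experiment 2, where the element was recovered. With these standard errors a change of a few fold in the rarer elements was not detectable, and a p that misses the threshold does not show equal recovery.

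Sgs4_OPSL was lower in CD2+ than in CD2- cells on 6 of 6 days, with daily log2 differences from -4.08 to -0.06. On some days this order rests on few counts. They were 0 in CD2+ and 6 in CD2- on day 2, 3 and 4 on day 5, and 0 and 28 on day 6. Of the 358 elements 7 (1.96%) were lower in CD2+ on all days by unscaled CPM, and Sgs4_OPSL was the 1 member among them. Cpr47Ee_CG13222-edge was higher in CD2+ on the 3 days of experiment 2, by 0.37 to 1.16, and on 1 of the 3 days of experiment 1. For Est-6_D-511 and vas_construct16 the daily differences took both signs, from -1.50 to 0.90 and from -2.68 to 1.48.

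**Figure D4:**
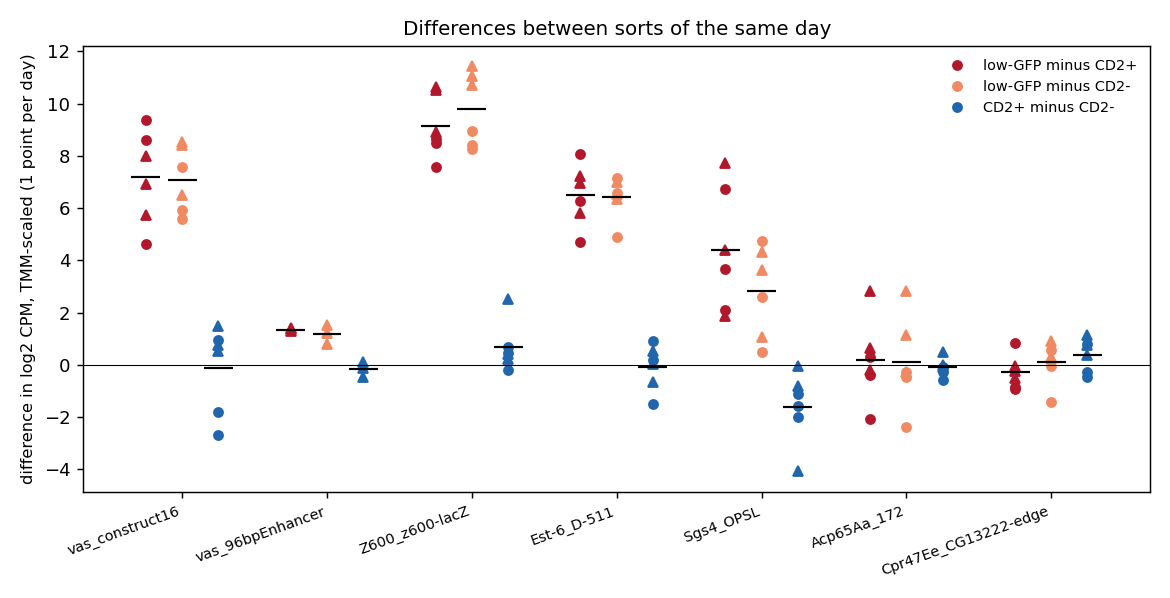
Differences in TMM-scaled log2 CPM between sorts of the same day (circles experiment 1, triangles experiment 2, line at the mean), for low-GFP minus CD2+, low-GFP minus CD2- and CD2+ minus CD2-, with vas_96bpEnhancer in experiment 2 alone. The low-GFP differences of Z600_z600-lacZ, vas_construct16 and Est-6_D-511 exceed 4.6 on all days, and those between controls lie on both sides of 0 for each of the 3.

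Between experiments, no difference in low-GFP fold change of a member passed the edgeR test (0 of 358 elements, 0%, with 12 or 3.35% at an unadjusted p under 0.05). The element vas_96bpEnhancer is left aside here, having no fold in experiment 1. The difference, experiment 2 minus experiment 1, was 0.84 (SE 1.70) for vas_construct16 and 0.42 (SE 0.69) for Cpr47Ee_CG13222-edge. It was 0.27 (SE 2.27) for Sgs4_OPSL and 0.12 (SE 1.48) for Est-6_D-511, each with an edgeR adjusted p of 1.00. DESeq2 called 15 of the 416 elements it tested, Acp65Aa_172 among them. In simulated data the edgeR test called only 1.79% of 4-fold and 34.5% of 64-fold differences between experiments. A miss therefore does not show equal fold changes. The test also uses the low-GFP values that helped choose the members, so for them it is a description.

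Across the 18 libraries the 3 members whose low-GFP libraries stood apart from all controls had highly correlated profiles. Here and below, the Pearson correlation is of log2(CPM + 2) with TMM-scaled CPM. It was 0.980 between Z600_z600-lacZ and vas_construct16, 0.977 between Z600_z600-lacZ and Est-6_D-511, and 0.966 between Est-6_D-511 and vas_construct16. These profiles share libraries and depth, and in each the low-GFP libraries stand apart from all controls. The correlations therefore largely restate that contrast, which helped choose the members. Whether the elements vary together within a population was not tested. The 2 vas elements correlated at 0.056, and Acp65Aa_172 and Cpr47Ee_CG13222-edge at -0.0075. Sgs4_OPSL correlated at 0.751 with Est-6_D-511 and 0.682 with vas_construct16.

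Among all 358 elements the profile most like that of Z600_z600-lacZ was E_0_12h_dCtBP7667.region_4530 (r = 0.989 over 18 libraries), followed by h_HHRE (r = 0.981), an element of the pair-rule gene hairy. E_0_12h_dCtBP7667.region_4530 averaged 258 ± 147 CPM in low-GFP cells, with 0.986 ± 1.09 CPM for CD2+ and 1.27 ± 1.01 CPM for CD2- sorts (SD, n = 6 each). It was also first for Est-6_D-511 (0.987), before DHS+K27me3_CtBPoverlap_2267 (0.985). For vas_construct16 the first was Z600_z600-lacZ and the next h_HHRE (0.979), and for Sgs4_OPSL the closest were DHS+K27me3_CtBPoverlap_2267 (0.777) and ClassI_ins_29 (0.757). For vas_96bpEnhancer they were tll_O-E (0.951), of the terminal gap gene tailless, and E0_12_GROAviva_ChIP_chip.region_131 (0.950), and these 3 were present mainly in experiment 2. Closest were ATP7_5DAG4 (0.686) and cas_csc-2 (0.661) for Acp65Aa_172, and E_0_12h_dCtBP7667.region_1855 (0.681) and E_0_12h_dCtBP7667.region_3439 (0.673) for Cpr47Ee_CG13222-edge. ATP7_5DAG4 and cas_csc-2 were nearly absent from experiment 1, with highest counts of 4 and 1 in a library there.

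Other elements of related genes were taken from 4 gene lists. For germline genes 7 elements of the 19 listed genes were in the pool and 4 were tested against both controls, with 2 called higher and 0 lower, where 15.9% of all elements were called higher and 10.1% lower. Their median log2 fold change was 1.61, where the median of all elements was -0.61. The 4 values were -2.01, -1.17, 4.40 and 4.82, so no element lay near that median and it does not describe the list. Against CD2+ alone 2 of the 4 were called higher, where 12.3% of all elements were, and against CD2- alone 1, where 13.4% of all elements were. Both called elements belong to ovo, a zinc finger gene of the female germline that also acts in the epidermis. ovo_E2 averaged 477 ± 270 CPM in low-GFP cells, with 31.6 ± 12.7 CPM for CD2+ and 39.7 ± 11.1 CPM for CD2- sorts (SD, n = 6 each), and its log2 fold change was 4.40 (SE 0.71; edgeR quasi-likelihood test, adjusted p = 0.000111). For ovo_E2 all 6 low-GFP libraries lay above all 12 controls.

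The other, ovo_del-ap-del-5, was at 4.82 on the log2 scale (SE 1.55; edgeR quasi-likelihood test, adjusted p = 0.0265), with 3 of 6 low-GFP libraries above all controls. Its call was lost with the collection day as a block (4.09, adjusted p = 0.260) and without day 3 (2.63, edgeR adjusted p = 0.443), and also without day 4, 5 or 6 (5.23, 4.91 and 4.97). It was lost as well with no experiment term (4.40, edgeR adjusted p = 0.0593), within experiment 2 (4.33, edgeR adjusted p = 0.205) and within experiment 1 (6.25, edgeR adjusted p = 0.0847). The tested element of nanos, a translational repressor gene of the germ plasm, averaged 3268 ± 1793 CPM in low-GFP cells, with 9722 ± 4452 CPM for CD2+ and 13221 ± 6420 CPM for CD2- sorts (SD, n = 6 each). Its log2 fold change was -1.17 (edgeR adjusted p = 0.0514), and it passed the threshold by total counts (-1.82, edgeR adjusted p = 0.00695), by summed reads (-1.23) and without day 1 (-1.30). bcd_49bg-Z, of the anterior determinant bicoid, had -2.01 (edgeR adjusted p = 0.503).

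Of the 18 genes of the cell cycle list, 4 elements were listed and 3 were tested, all of dacapo, which encodes a cyclin-dependent kinase inhibitor. With 0 called, their median log2 fold change was -1.18, from dap_dap-BB and dap_dap3'2' at -1.18 each and dap_dap-del at 1.40. The dap_dap3'2' value is unsteady, reaching 4.89 with the day as a block, 3.68 without day 4 and 0.027 without day 2. By total counts dap_dap-BB was called lower (-1.90, edgeR adjusted p = 0.0187). Of the 24 gland and secreted enzyme genes, 3 elements were listed and 1 was tested, the fork head element fkh_salivary_gland_enhancer, at -1.55 (edgeR adjusted p = 0.538). Among 21 cuticle and eggshell genes, 1 element was listed, Vm26Aa_C2, and it was not tested, with counts in 4 of 18 libraries.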

How the data were processed

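Each library came as 2 tables that the authors deposited, holding read counts per barcoded element from read 1 and from read 2. They also deposited comparison tables with a ratio (fold change), its log2 value, p-values and normalized means (signal), which were used only for the log2 values cited. The submitters' processing notes name DESeq, and the mapper is not given in the sources used here. Read 1 counts were fitted with edgeR 4.0.16 (R 4.3.3): filterByExpr with a minimum count of 10, TMM scaling, population and experiment as terms, and a quasi-likelihood test with Benjamini-Hochberg adjustment over 358 elements at 0.05. The SE is the log2 fold change divided by the square root of F, and restates the test. Daily differences used a prior count of 2. DESeq2 1.42.0 and other alternatives are in the closing section. The code was tested on simulated data.

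Replicates are collection days, and the labels' dates pair the sorts of a day. Deviations of same-day libraries from their group means correlated above 0.1 in 17 of 18 pairs (median 0.223, smallest 0.0954). Reads of PCR products need not be separate molecules, and a floor therefore covers the error of counting alone. The members, lists and tests were chosen with earlier results of these data known. Named elements are the members, the 2 elements most correlated with each, and all elements of the 4 lists. The planned round 2 tests were not run because no member is listed there. The interaction of experiment and population in round 1 was added after the data were seen. It uses the low-GFP values that helped choose the members, so its p-values for members are a description.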

Additional observations from a re-analysis of the deposited data

Results flagged for a closer look

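In 21 groups of 6 libraries, 1 for each member and population, a library was looked for whose gap to its nearest neighbour exceeded Dixon's critical share of the group's range. Chance flags about 1 group in 20 if values are normally distributed, and that share was not checked for these CPM values. The low-GFP library of day 3 had 457 CPM of vas_construct16, with a gap of 0.662 of the range. The low-GFP library of day 6 had 2552 CPM of vas_96bpEnhancer, with a gap of 0.779 of the range, in a group whose 3 libraries of experiment 1 were at or under the floor.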

How the results depend on the processing

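Calls against both controls numbered 93 of 358, 42 within experiment 1, 49 within experiment 2 and 74 to 93 leaving out a day. Against CD2+ there were 74, with 125 of 416 by DESeq2, 17 and 29 within experiments 1 and 2, and 50 to 71 leaving out a day. Against CD2- there were 76, with 14 and 26 within the experiments and 51 to 75 leaving out a day. CD2+ against CD2- gave 0, and 6 of 416 by DESeq2, and the interaction 0, and 15 of 416 by DESeq2. The split against both controls was 57 higher and 36 lower with TMM, 47 and 56 by total counts, 58 and 27 with E. coli scaling and 63 and 23 with DESeq2 size factors. With the replicate block of collection day the counts were 88, 73, 77, 0 and 0 in the order above, and the block changed no member's call in CD2+ against CD2- or in the interaction.

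For CD2+ against CD2-, signs turned without any call for Acp65Aa_172 (0.12 within experiment 2), Cpr47Ee_CG13222-edge (-0.14 within experiment 1), Est-6_D-511 (-0.070 by total counts, -0.066 by read 2, -0.027 with the block, -0.30 to 0.33 leaving out a day) and vas_construct16 (-0.96 by read 2, -0.43 by summed reads, -0.66 within experiment 1, -0.28 to 0.81 leaving out a day). For the interaction they turned for Cpr47Ee_CG13222-edge (-0.24 with E. coli scaling, -0.15 to 1.04 leaving out a day), Est-6_D-511 (-0.042 by total counts, -0.26 with E. coli scaling, -0.22 to 0.48), Sgs4_OPSL (-0.0040 by total counts, -0.73 with E. coli scaling, -0.32 by read 2, -0.11 by summed reads, -0.83 to 2.83) and vas_construct16 (-1.05 to 1.93). Among list elements, dap_dap3'2' turned to 4.89 with the block and ran from -1.43 to 3.68 leaving out a day, and fkh_salivary_gland_enhancer was 0.026 within experiment 2. The cause of these changes was not tested. Low control counts, down to 0, limit the precision of the low-GFP folds of Z600_z600-lacZ, vas_construct16 and Sgs4_OPSL.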
